A study of Homo sapiens with 6 samples.

Results

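The genes for 9 cytokines, IFNG, IL10, CSF2, IL3, IL5, IL13, IL22, IL26 and IL32, were followed in stimulated NK92 cells. They were taken by their symbols from a table of RNA counts for 36601 genes, and all 9 had an entry. NK92 (NK-92 in the labels) is a human line from an NK cell lymphoma that needs IL-2 to grow. The cells stably expressed shCtrl, a control hairpin, or shmiR155HG, a hairpin directed at miR155HG, the long noncoding RNA that is also the precursor of miR-155, and each group had 3 libraries. All cells, shCtrl included, had been kept for 12 h with IL-2 at 1000 U/mL and IL-12 at 10 ng/mL, so no unstimulated level is known from these libraries. Poly(A) RNA was read in pairs of 150 bases. The values are therefore levels of mRNA, and neither secretion nor protein was measured in them. No source used here states whether the 3 libraries of a group came from separate cultures or transductions, so the p-values measure the spread between these libraries, which may be technical. The sources name a single shRNA line against miR155HG, and the effect of that shRNA on other RNAs cannot be told apart from that of miR155HG.

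NK cells answer IL-12 and IL-2 mainly by making IFN-γ. IL-12 acts through the kinases JAK2 and TYK2 and the transcription factor STAT4, and IL-2 through JAK1, JAK3 and STAT5. Cytokine mRNAs are mostly transcribed on demand and decay fast, which for many of them depends on AU-rich elements in the 3′UTR. IL-10 restrains inflammation and is made late by many activated lymphocytes. CSF2 (GM-CSF), IL3, IL5 and IL13 are neighbours in the type 2 cytokine cluster and are typical products of T cells and ILC2, while IL22 and IL26 belong to the IL-10 family and lie beside IFNG. IL32 is a cytokine of NK and T cells with no close relative among the other members.

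The libraries held 33454786 to 39157264 counts, and their TMM scaling factors lay between 0.9966 and 1.003. Between replicates of a group the chi-square averaged 7.35 to 10.9 per gene, above sampling noise if 1 count is 1 read. This does not show whether the libraries are independent. Each library was counted as 1 replicate. MIR155HG, the target of the shRNA, had 73, 67 and 62 counts in the shCtrl libraries and 28, 19 and 10 counts in the shmiR155HG libraries (values by library are in the order of replicates 1, 2 and 3 here and throughout; log2 fold change −1.78, SE 0.43, adjusted p = 0.00450, quasi-likelihood test of edgeR). Of 10 NK cell markers, 9 exceeded 1 CPM (a gene's counts scaled to a common library total, the unit used throughout), with NCAM1 at 278.1 and NKG7 at 677.6 in shCtrl cells. Their summed level was 2929 to 3020 CPM in shCtrl libraries and 2206 to 2312 in shmiR155HG libraries, where GZMB, the granzyme B gene, had gone from 1195 to 542.9. PRF1 (327.6 to 285.5 CPM, adjusted p = 0.000419) and NCR3 (159.8 to 135.3 CPM, adjusted p = 0.000577) were also called lower (quasi-likelihood test). NCAM1, NKG7, KLRD1, GNLY, NCR1 and KLRK1 were not called, and CD7 was not tested. Of the T cell markers, 2 of 7 exceeded 1 CPM (TRAC and CD6), with a summed level of 88.9 to 98.4 CPM against 98.3 to 110.8, and CD3G, CD4, CD5 and CD8B were at or near 0. Of the B cell markers, PAX5 went from 244.1 to 341.6 CPM, with MS4A1 at or near 0. The myeloid list (2 of 5, CSF1R and ITGAM) summed to 12.2 to 20.9 against 10.7 to 13.9 CPM, with LYZ and FCGR1A at or near 0. CD14, under 1 CPM in every library, had 7, 2 and 0 counts in shCtrl and 10, 23 and 17 in shmiR155HG libraries. The ILC2 list (1 of 4, GATA3) summed to 13.9 to 16.2 against 20.9 to 22.1 CPM. IL1RL1, also under 1 CPM in every library, had 13, 30 and 13 counts in shCtrl and 10, 0 and 6 in shmiR155HG libraries. The part of these shifts in the results on cytokines was not tested.

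Expression of the 9 genes fell into 2 classes. IFNG, IL10 and IL32 had 1651 to 39092 counts in every library. The other 6, CSF2, IL3, IL5, IL13, IL22 and IL26, had at most 20 counts in any library and did not pass the low-count filter, which asked for over 1 CPM in 2 or more libraries, so for these genes the data give little or no sign of the expression that the name of the set implies, within what this depth can show. In shmiR155HG cells IFNG and IL10 were lower than in shCtrl cells, to 75.2% and 70.1% of the shCtrl level, while IL32, the most abundant of them, stood at 96.3% and was not called. Among all 12263 genes tested, 8.02% were called lower and 7.26% were called higher (adjusted p under 0.05), and 2 of the 3 members tested were called lower and none higher.

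**Figure D1:**
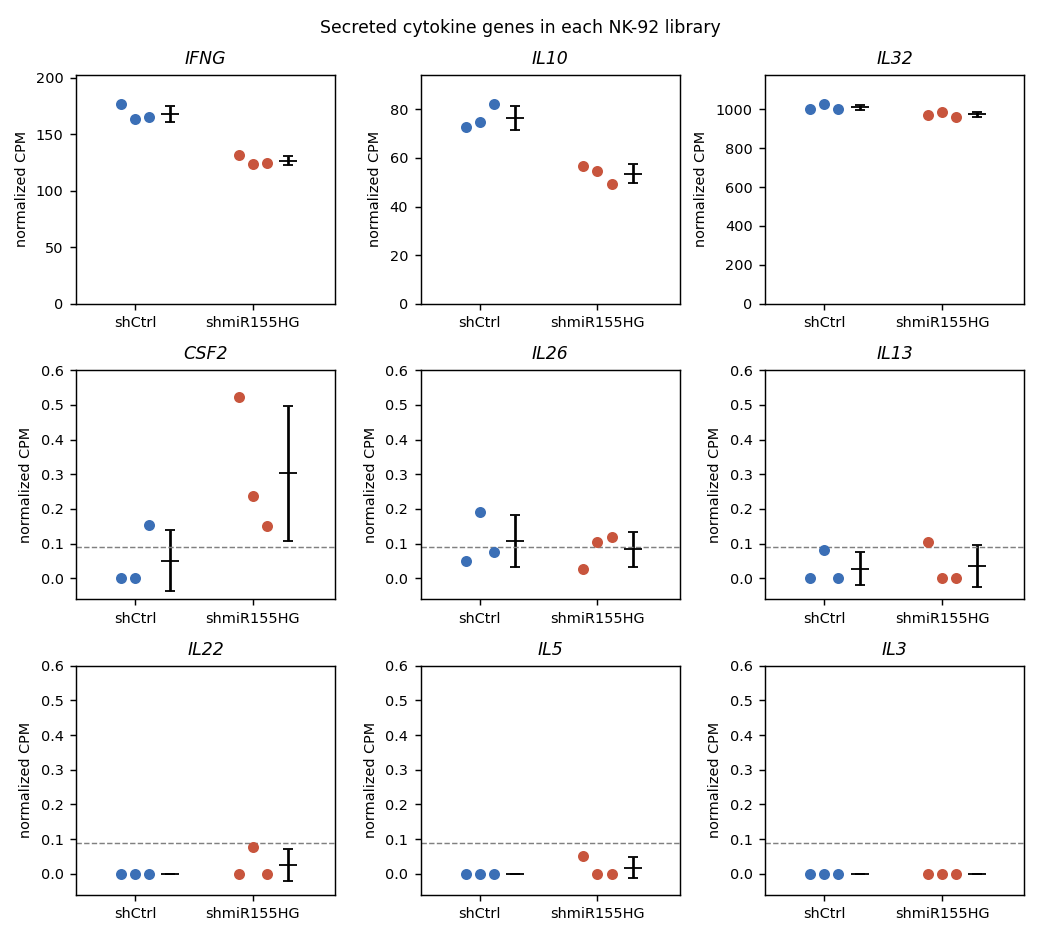
Normalized CPM of the 9 cytokine genes in each library (points), with the mean and SD of each group (bars, n = 3). IFNG and IL10 lie lower in every shmiR155HG library than in every shCtrl library, and IL32 stays between 961.6 and 1025 CPM. The other 6 genes stay low, with the highest value, 0.521 CPM, in CSF2 in shmiR155HG replicate 1. The dashed line marks 3 counts in the library with the fewest counts (0.0897 CPM).

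IFNG (ENSG00000111537), which encodes IFN-γ, the macrophage-activating cytokine of NK and Th1 cells, is a minus-strand gene of chromosome 12 (hg38, 68154768 to 68159740). Its canonical transcript has 4 exons and 1211 nt. IFNG had 6868, 5958 and 6451 counts in the shCtrl libraries, and 5047, 4704 and 4181 in the shmiR155HG libraries. After scaling these were 176.5, 163.3 and 165.5 CPM in shCtrl and 131.5, 123.6 and 125 CPM in shmiR155HG cells. The lowest shCtrl library was above the highest shmiR155HG library, and replicate 1 was the highest of each group. The means were 168.5 ± 7.07 CPM (SD, n = 3) and 126.7 ± 4.23 CPM (SD, n = 3), and the coefficient of variation was 4.20% and 3.34%. The log2 fold change was −0.41 (SE 0.045, 95% interval −0.50 to −0.32, adjusted p = 1.40e-07, quasi-likelihood test of edgeR), which leaves 75.2% of the shCtrl level (70.6% to 80.2%). By size, 479 of the 12263 genes tested had a lower log2 fold change. In bulk RNA, fewer cells that express a gene and less of its RNA per cell cannot be told apart.

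IL10 (ENSG00000136634), which encodes the anti-inflammatory cytokine IL-10, is a minus-strand gene of chromosome 1 (206767602 to 206774541), with 5 exons and 1630 nt in its canonical transcript. IL10 had 2826, 2731 and 3196 counts in the shCtrl libraries, and 2175, 2081 and 1651 in the shmiR155HG libraries. In scaled units it stood at 72.6, 74.9 and 82.0 CPM in shCtrl and at 56.7, 54.7 and 49.4 CPM in shmiR155HG cells. The groups did not overlap. The highest library was shCtrl replicate 3 and the lowest shmiR155HG replicate 3, unlike IFNG. The means were 76.5 ± 4.90 CPM (SD, n = 3) and 53.6 ± 3.78 CPM (SD, n = 3). The log2 fold change was −0.51 (SE 0.067, 95% interval −0.65 to −0.38, adjusted p = 2.47e-06, quasi-likelihood test), with 70.1% of the shCtrl level left (63.7% to 77.0%). A lower log2 fold change was found for 281 of the genes tested.

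IL32 (ENSG00000008517), whose product induces other inflammatory cytokines, is a plus-strand gene of chromosome 16 (3065297 to 3082192), with 7 exons and a canonical transcript of 818 nt. IL32 had 39073, 37394 and 39092 counts in the shCtrl libraries, and 37229, 37613 and 32159 in the shmiR155HG libraries. The scaled levels were 1004, 1025 and 1003 CPM in shCtrl and 970.2, 988.2 and 961.6 CPM in shmiR155HG cells. The 3 shmiR155HG libraries were all lower, though the gap between the nearest libraries of the groups (1003 and 988.2 CPM) was close to the SD within a group. The means were 1011 ± 12.4 CPM (SD, n = 3) and 973.3 ± 13.6 CPM (SD, n = 3). The log2 fold change of −0.05 (SE 0.029, adjusted p = 0.237, quasi-likelihood test) did not pass the threshold, and its 95% interval, from −0.11 to 0.01, allows a level of 92.4% to 100.4% of shCtrl. For each of IFNG, IL10 and IL32 the 3 shmiR155HG values were below the 3 shCtrl values, a pattern shared by 15.6% of all genes tested, with 15.2% showing the opposite one. The exact two-sided permutation test gave p = 0.1 for each of these genes, which is the smallest p that 3 libraries against 3 allow.

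The fall was then compared between these genes within each library. The log2 ratio of IFNG to IL10 CPM was 1.14 ± 0.134 (SD, n = 3) in shCtrl and 1.24 ± 0.085 (SD, n = 3) in shmiR155HG cells, a difference of 0.10 that was smaller than the spread in shCtrl (exact permutation p = 0.4, adjusted p = 0.4 over 3 pairs). The log2 ratio of IFNG to IL32 moved from −2.58 ± 0.072 to −2.94 ± 0.058 (SD, n = 3 in each group; difference −0.35) without overlap between the groups. That of IL10 to IL32 moved from −3.72 ± 0.098 to −4.17 ± 0.093 (SD, n = 3 in each group; difference −0.46), again without overlap. Both had an exact permutation p = 0.1, or 0.15 adjusted over 3 pairs, and a smaller p is out of reach with 3 libraries against 3. IFNG and IL10 did not rank the replicates of a group in the same order. Deviations from the group mean of log2 CPM were 0.07, −0.04 and −0.02 for IFNG in shCtrl replicates 1, 2 and 3, and −0.07, −0.03 and 0.10 for IL10. In shmiR155HG replicates 1, 2 and 3 they were 0.054, −0.035 and −0.019 for IFNG, and 0.083, 0.031 and −0.11 for IL10. Replicate 1 was thus the highest for both genes in shmiR155HG cells.

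CSF2, a growth factor of granulocytes and macrophages, had 0, 0 and 6 counts in the shCtrl libraries, and 20, 9 and 5 in the shmiR155HG libraries. The highest level was 0.521 CPM, and shCtrl replicate 3, at 0.154 CPM, exceeded shmiR155HG replicate 3, at 0.150 CPM, so the groups overlapped. With 6 counts summed over shCtrl against 34 over shmiR155HG libraries, CSF2 was the only untested member in which the groups' sums differed by more than 4 counts. When no filter was applied its adjusted p was 0.407 (quasi-likelihood test, unadjusted p = 0.104). IL3, a growth factor of early myeloid cells, mast cells and basophils, was listed at 0 in all 6 libraries. If 1 count is 1 read, a count of 0 allows up to 3 counts, or 0.0770 to 0.0897 CPM depending on the library. This limit covers counting error only. IL5, the eosinophil cytokine, had 2 counts in shmiR155HG replicate 1 and 0 elsewhere. IL13, which acts on epithelium and smooth muscle, had 3 counts in shCtrl replicate 2, 4 in shmiR155HG replicate 1 and 0 elsewhere. For these genes of the chromosome 5 cluster no difference was detectable at this depth.

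IL22, which acts on epithelial cells, had 3 counts in shmiR155HG replicate 2 and 0 elsewhere. IL26, an antimicrobial relative of IL-10, was found in every library, with 2, 7 and 3 counts in the shCtrl libraries, and 1, 4 and 4 in the shmiR155HG libraries. Its mean was 0.107 ± 0.0748 CPM (SD, n = 3) in shCtrl and 0.0836 ± 0.0503 CPM (SD, n = 3) in shmiR155HG cells, with overlapping groups (adjusted p = 0.963 without a filter, quasi-likelihood test). The antisense lncRNA IFNG-AS1 spans the whole of IL26 and had 86 to 146 counts. Whether strand was used in counting is not given in the sources used here, so reads of this pair cannot be told apart.

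To compare levels between genes, scaled counts were divided by the length of the canonical transcript in kb. On this scale IL32 stood first of 57 cytokine genes, at 1236 ± 15.2 CPM per kb (SD, n = 3) in shCtrl and 1190 ± 16.6 in shmiR155HG cells, and it was number 28 of 36366 genes with a length. IFNG was the sixth, at 139.1 ± 5.84 CPM per kb in shCtrl and 104.6 ± 3.49 in shmiR155HG cells (SD, n = 3). Between IL32 and IFNG came the lymphotoxin genes LTB (607.6 in shCtrl) and LTA (405.4), MIF (553.0) and CSF1 (206.2), all in CPM per kb. IL10 followed IFNG, at 46.9 ± 3.003 CPM per kb in shCtrl cells (SD, n = 3), a level whose SD overlapped that of TNF (42.8 ± 3.50). IL32, IFNG and IL10 were separated from one another by far more than their spread. In shmiR155HG cells IL10 stood at 32.9 ± 2.32 CPM per kb (SD, n = 3), below TGFB1 (56.1 ± 1.97), TNF (44.4 ± 2.52) and IL1RN (37.6 ± 1.503).

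**Figure D2:**
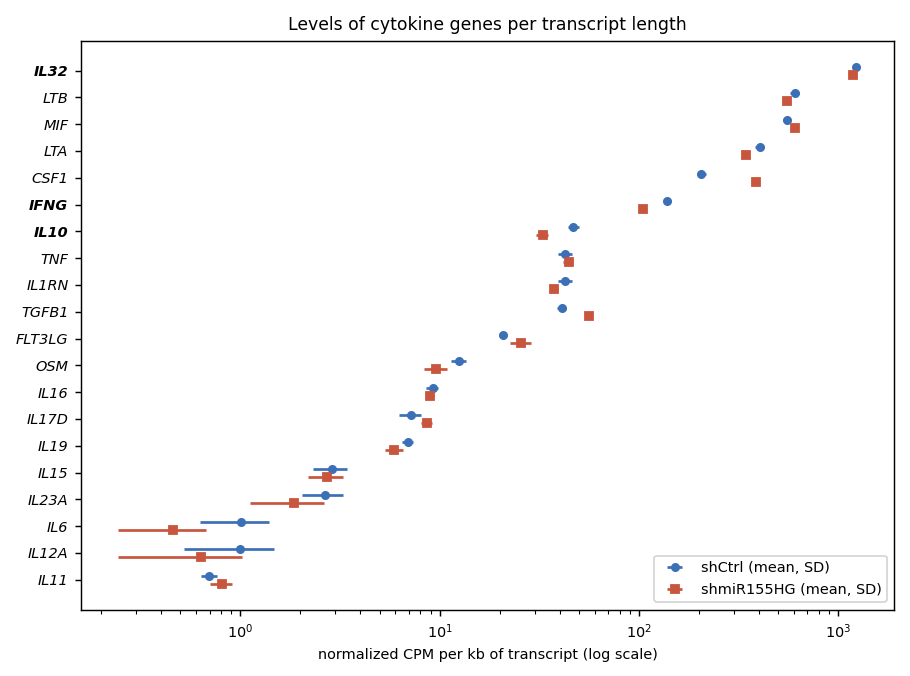
Mean normalized CPM per kb of transcript of cytokine genes with at least 0.5 CPM per kb in shCtrl cells, on a log scale, in shCtrl (circles) and shmiR155HG (squares) with the SD of 3 libraries, and the listed cytokines in bold. IL32 leads at 1236 CPM per kb in shCtrl, and IFNG at 139.1 and IL10 at 46.9 stand sixth and seventh.

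The promoters of the genes with expression are printed together with that of CSF2, which was near 0. They were searched for motifs of STAT factors and of other transcription factors. They come from RefSeq (GRCh38.p14), run from 250 bases before the start site to 50 after it, and are given 5′ to 3′ on the strand of the gene, with motif matches in capitals. The motifs searched on both strands were TTCNNNGAA for STAT factors, TGANTCA for AP-1, GGAAAA for NFAT, AGATAA or else TGATAA for GATA factors, AGGTGTGA for T-box factors, GGGAATTTC or else GGGACTTTC for NF-κB, and TGACGTCA for CRE. The windows are those of IFNG at chr12:68159691-68159990 (minus strand), IL10 at chr1:206772445-206772744 (minus strand), IL32 at chr16:3065534-3065833 (plus strand) and CSF2 at chr5:132073539-132073838 (plus strand).
IFNG: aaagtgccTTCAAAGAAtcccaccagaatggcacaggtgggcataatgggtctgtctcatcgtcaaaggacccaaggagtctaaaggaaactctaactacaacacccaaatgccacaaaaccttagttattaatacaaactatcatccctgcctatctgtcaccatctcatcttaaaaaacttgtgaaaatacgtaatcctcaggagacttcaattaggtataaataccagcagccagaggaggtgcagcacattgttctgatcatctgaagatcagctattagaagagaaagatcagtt
IL10: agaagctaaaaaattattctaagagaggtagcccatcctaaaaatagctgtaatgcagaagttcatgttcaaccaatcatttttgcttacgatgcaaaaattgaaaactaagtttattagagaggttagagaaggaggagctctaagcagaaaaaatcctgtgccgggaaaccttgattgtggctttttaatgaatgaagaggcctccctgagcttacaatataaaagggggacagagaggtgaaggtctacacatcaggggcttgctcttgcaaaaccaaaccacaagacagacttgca
IL32: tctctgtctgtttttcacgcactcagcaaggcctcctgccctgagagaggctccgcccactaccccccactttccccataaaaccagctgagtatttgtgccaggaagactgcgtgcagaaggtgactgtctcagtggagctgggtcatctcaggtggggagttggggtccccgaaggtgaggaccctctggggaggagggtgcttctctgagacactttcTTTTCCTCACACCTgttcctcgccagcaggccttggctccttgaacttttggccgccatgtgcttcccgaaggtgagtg
CSF2: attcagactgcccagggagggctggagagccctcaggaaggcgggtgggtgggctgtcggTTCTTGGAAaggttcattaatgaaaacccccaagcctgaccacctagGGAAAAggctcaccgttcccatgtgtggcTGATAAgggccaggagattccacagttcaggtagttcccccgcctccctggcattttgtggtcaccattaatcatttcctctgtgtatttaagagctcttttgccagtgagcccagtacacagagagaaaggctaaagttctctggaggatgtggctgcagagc

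IFNG and IL10 fell together but shared no match among these motifs. The IFNG window held a single match, TTCAAAGAA at position −242 from the start site, and the STAT motif is found in 7.66% of 35116 promoter windows of this length. The IL10 window held none, and 1 of its 2 further start sites had an AP-1 match (TGAGTCA at −69, 7.71% of windows). The IL32 window held an NFAT match at −29 (reverse strand, 24.0% of windows) directly followed by a T-box match at −23 (reverse strand, 0.980% of windows), without overlap, and a second IL32 start site, at 3065403, had a CRE at −121 (1.85% of windows). Of the 7 members searched, CSF2, with almost no counts, held the most in a window, with STAT at −190, NFAT at −143 and the GATA match TGATAA at −114 (7.53% of windows). IL3 and IL26 each held 1 match to AGATAA (10.3% of windows) and IL13 held 1 to GGAAAA, at the second of its start sites. IL5 and IL22 were not searched here. A match describes letters only, and the absence of a match concerns this window alone.

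The shRNA targets the precursor of miR-155, and the 3′UTR of each member was therefore searched for miRNA sites. Mature miR-155-5p, encoded on chromosome 21 from 25573983 to 25574006 on the plus strand, is printed with its seed (bases 2 to 8) in capitals, beside the sole member site that matches this seed, in capitals within its flanks in the IL13 3′UTR. The site CCCACCC, taken as the match to the seed of miR-6756-5p, which the study examined as a partner of miR155HG, is shown in the IL32 3′UTR.
miR-155-5p: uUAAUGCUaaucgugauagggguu
IL13 site: gagcacactgtAGCATTAcagtgggtgcc
IL32 site: gtcaccgcgcaCCCACCCtgacccctccc

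The site AGCATTA was in 11.9% of 10739 3′UTRs of genes tested and in that of IL13 alone among the members, at position 292 of 828 nt, in a gene with no more than 4 counts per library. CCCACCC was in 23.2% of 3′UTRs and only in that of IL32 among the members, at position 40 of 175 nt. IFNG and IL10, the members that were lower, held neither, nor a site for miR-155-3p (TGTAGGA, 10.4%) or miR-6756-3p (GAAGGGG, 14.7%). In contrast, the pentamer ATTTA, the core of AU-rich elements, was common to 8 of the 9 members. It occurred 5 times in the 585 nt of the IFNG 3′UTR, 8 times in the 1034 nt of IL10 and 8 times in the 318 nt of CSF2, against a median of 2 in a median length of 1280 nt. IL32 had none in its 175 nt, and 72.1% of all 3′UTRs had at least 1.

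Each member's place in the genome was then set beside its level. IL26 and IL22 lie on the same strand of chromosome 12 as IFNG, from 68201349 to 68225810 and from 68248242 to 68253604, and neither reached 0.2 CPM in any library, where IFNG had at least 123.6. CSF2 (132073789 to 132076170), IL3 (132060655 to 132063204), IL5 (132541445 to 132556838) and IL13 (132656263 to 132661110) lie on chromosome 5. IL5 is on the minus strand and shares 820 bases at its 5′ end with RAD50, a DNA repair gene on the opposite strand with 4432 to 5379 counts per library. IRF1, an interferon-regulated transcription factor gene near IL5, had 310 ± 6.68 CPM in shCtrl and 335 ± 3.50 CPM in shmiR155HG cells (SD, n = 3; log2 fold change 0.11, adjusted p = 0.0258, quasi-likelihood test). Of the 94 genes within 250 kb of a member, 41 were tested, with 4 lower (9.76%) and 3 higher (7.32%), close to the 8.02% and 7.26% of all genes, and with a median log2 fold change of −0.12 against 0.00097 for all genes.

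Around IL32, the protease gene MMP25 went from 135.9 ± 8.21 to 92.5 ± 3.58 CPM (SD, n = 3; log2 fold change −0.56, SE 0.051, adjusted p = 7.41e-09, quasi-likelihood test), next to an IL32 that was not called. Its antisense lncRNA MMP25-AS1 was also lower (−0.19, adjusted p = 0.00253), and ZNF263, a zinc finger gene, was higher (0.21, adjusted p = 0.0161, same test). MMP25 and MMP25-AS1 overlap on opposite strands, so without strand in the counting they could share reads. Around IL10, the only gene called was RASSF5, a Ras effector gene, which was higher (0.16, SE 0.034, adjusted p = 0.00208, quasi-likelihood test). MDM1, near IL22, was lower (−0.34, adjusted p = 0.00397), and IFNG itself completed the 4 lower genes as a neighbour of IL26 and IL22. IFNG and IL10 each overlap a gene on the opposite strand, which without strand in the counting could share their reads. IFNG-AS1 had 1.5% to 2.45% of the counts of IFNG (log2 fold change −0.36, adjusted p = 0.429, same test). IL19, another member of the IL-10 family, had 10.98% to 15.47% of the counts of IL10 (log2 fold change −0.22, adjusted p = 0.389).

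**Figure D3:**
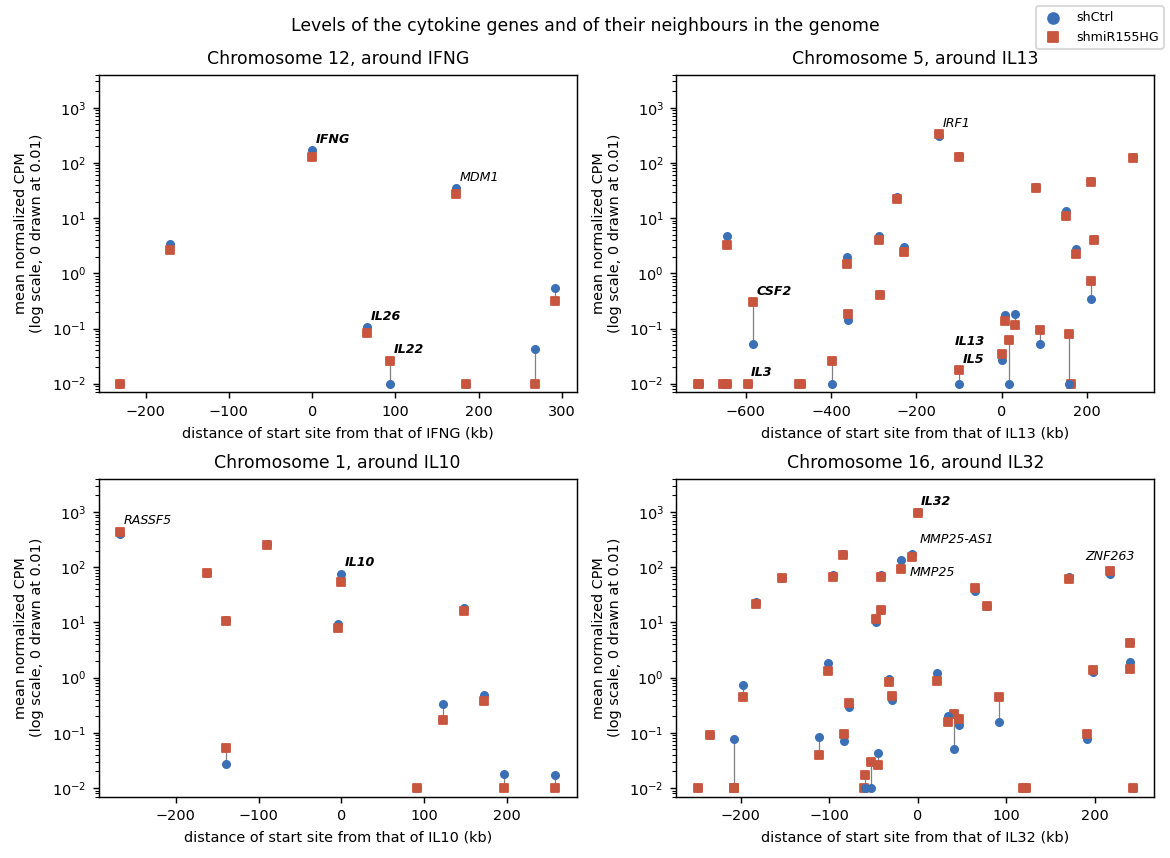
Mean normalized CPM (log scale, with 0 drawn at 0.01) of each listed cytokine gene (bold) and of the genes within 250 kb of one, against the distance of the start sites in kb, for shCtrl (circles) and shmiR155HG (squares). Neighbours are named where their adjusted p was under 0.05. IFNG, at 168.5 and 126.7 CPM, stands beside IL26 and IL22 at about 0.1 CPM or less.

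Other cytokine genes gave a mixed picture. The lists here and below were chosen with earlier results of these data known, so the shares called in them are a description. Of 48 on the list, 25 had a mean under 0.1 CPM in both groups and 16 were tested, with 3 lower (18.8%), 4 higher (25%) and a median log2 fold change of −0.06, beside 8.02% lower and 7.26% higher among all genes tested. CSF1, the growth factor of macrophages, went the opposite way from IFNG and IL10, with 30529, 29787 and 33870 counts in the shCtrl libraries against 59116, 58516 and 52419 in the shmiR155HG libraries (log2 fold change 0.91, SE 0.033, adjusted p = 1.05e-17, quasi-likelihood test). TGFB1, which encodes the immunosuppressive TGF-β1, rose from 114.3 ± 5.73 to 155.9 ± 5.46 CPM (SD, n = 3; adjusted p = 7.55e-08). FLT3LG (0.30, adjusted p = 0.0404) and MIF (0.13, adjusted p = 0.0205) also rose on the log2 scale. The lower genes were OSM (−0.38, adjusted p = 0.0178), LTA (−0.24, adjusted p = 2.06e-05) and LTB (−0.14, adjusted p = 0.00739), all from the same test. LTB lost its call without shCtrl replicate 2 (adjusted p = 0.0844) and without shmiR155HG replicate 2 (0.0759). TNF, an early cytokine of activated NK cells, was at 71.8 ± 5.87 and 74.5 ± 4.23 CPM (SD, n = 3) and was not called (adjusted p = 0.670).

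Of 15 receptor chains for the listed cytokines, 7 were tested, and 3 of these were lower (42.9%) and none higher, with a median of −0.07, against 8.02% lower and 7.26% higher among all genes tested. IFNGR1, the ligand-binding chain for IFN-γ, stood at 42.7 ± 3.27 CPM in shCtrl and 33.6 ± 2.35 CPM in shmiR155HG cells (SD, n = 3; log2 fold change −0.35, adjusted p = 0.00307, quasi-likelihood test). CSF2RB, the signalling chain shared by the receptors for CSF2, IL-3 and IL-5, went from 39.4 ± 1.68 to 30.9 ± 0.396 CPM (SD, n = 3; −0.35, adjusted p = 0.00190). IL4R, a chain of the receptor for IL-4 and IL-13, went from 101.2 ± 4.23 to 74.2 ± 4.15 CPM (SD, n = 3; −0.45, adjusted p = 1.75e-06). The chains for IL-10 did not pass the test, with log2 fold changes of 0.10 for IL10RA (adjusted p = 0.376) and −0.07 for IL10RB (adjusted p = 0.707). IFNGR2, IL13RA1, CSF2RA, IL5RA, IL22RA2 and IL20RA were listed at 0 in every library, and no level is given for them.

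**Figure D4:**
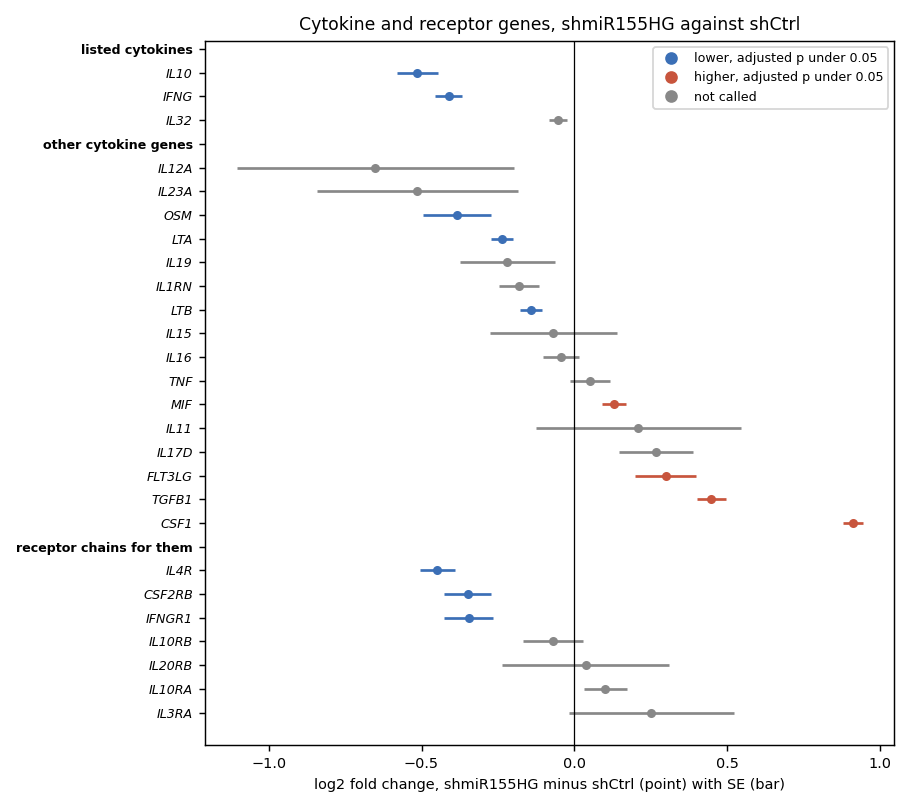
Log2 fold change of shmiR155HG against shCtrl (point) with its SE (bar) for the listed cytokines, the other cytokine genes and the receptor chains that passed the filter. Blue marks genes lower and red genes higher at an adjusted p under 0.05. IL10 at −0.51 and IFNG at −0.41 lie left of 0, IL32 at −0.05 close to it, and CSF1 at 0.91 farthest to the right.

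The receptors, kinases and STATs that carry the signals of the added IL-2 and IL-12 were all 15 tested, with 4 lower (26.7%), 2 higher (13.3%) and a median of 0.01, where all genes tested had 8.02% lower and 7.26% higher. JAK3, the kinase at the common γ chain, had 3922, 3447 and 3787 counts in the shCtrl libraries against 2697, 2892 and 2581 in the shmiR155HG libraries (log2 fold change −0.39, SE 0.056, adjusted p = 1.23e-05, quasi-likelihood test). IL12RB2, the signalling chain of the IL-12 receptor, was lower by a like amount, from 96.1 ± 4.75 to 73.3 ± 3.81 CPM (SD, n = 3; −0.39, adjusted p = 1.80e-05). TYK2, a kinase at the IL-12 receptor, was also lower (−0.15, adjusted p = 0.0163). STAT4, the main factor of IL-12, was at 34.5 ± 2.33 and 33.8 ± 1.86 CPM (SD, n = 3), and its log2 fold change, −0.03 (SE 0.081, adjusted p = 0.867), turned in sign when single libraries were left out. IL2RB, a signalling chain of the IL-2 receptor, rose (0.34, SE 0.032, adjusted p = 1.35e-08), as did STAT5A (0.26, adjusted p = 0.000551, same test).

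Of 32 transcription factors known to act on these cytokines, 27 were tested, with 4 lower (14.8%) and 11 higher (40.7%) and a median of 0.13, against 8.02% and 7.26% of all genes. TBX21, which encodes T-bet, an activator of IFNG, went from 252.5 ± 4.37 to 304.4 ± 9.73 CPM (SD, n = 3; log2 fold change 0.27, adjusted p = 4.99e-06, quasi-likelihood test). Its relative EOMES went from 177.1 ± 1.77 to 221 ± 5.43 CPM (SD, n = 3; 0.32, adjusted p = 7.75e-07), and RUNX3, their partner at IFNG, from 156.3 ± 2.73 to 219.4 ± 4.79 CPM (SD, n = 3; 0.49, adjusted p = 5.17e-10). IRF8 was lower, from 162.6 ± 0.635 to 125.8 ± 6.05 CPM (SD, n = 3; −0.37, adjusted p = 7.11e-07). The other lower genes were IKZF1, RORA and ZBTB32. GATA3, the activator of IL5 and IL13, rose from 14.0 ± 1.09 to 20.4 ± 0.754 CPM (SD, n = 3; 0.54, adjusted p = 0.00107), with both targets near 0 in each group. It is also the sole ILC2 marker that exceeded 1 CPM. Of the regulators of short-lived cytokine mRNA, 15 of 16 were tested, with 1 lower (6.67%), 2 higher (13.3%) and a median of −0.0050, with the same 8.02% and 7.26% over all genes. ZFP36L2, which binds AU-rich elements and speeds decay, rose (0.38, SE 0.066, adjusted p = 0.000154). RC3H1, another decay factor, rose (0.23, adjusted p = 0.0244), and the decapping enzyme gene DCP2 was lower (−0.16, adjusted p = 0.0466) although its groups overlapped. The call of RC3H1 was lost in 5 and that of DCP2 in 11 of 16 alternative settings.

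**Figure D5:**
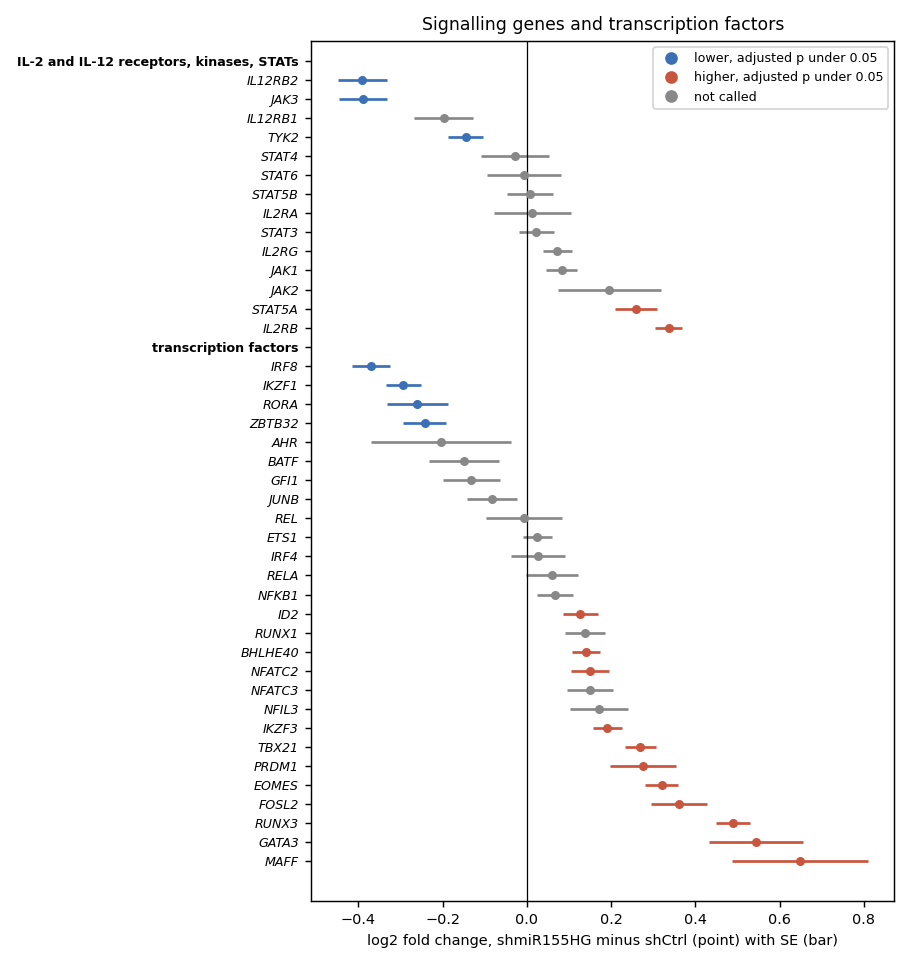
Log2 fold change of shmiR155HG against shCtrl (point) with its SE (bar) for genes of IL-2 and IL-12 signalling and for transcription factors that act on the cytokine genes. JAK3 and IL12RB2 lie at −0.39 and STAT4 at −0.03, while RUNX3 at 0.49, EOMES at 0.32 and TBX21 at 0.27 lie to the right.

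Genes were last ranked by how closely their log2 CPM followed that of each expressed member over the 6 libraries, out of 9722 genes whose mean reached 5 CPM. The group difference itself is part of every such correlation, and the libraries share depth and preparation, so the values are a description. The most like IFNG were ADH5, a formaldehyde-oxidizing enzyme (Pearson r = 0.999), and XBP1, a transcription factor of secretory cells (0.998). IL10 was most like APEX2, a DNA repair nuclease (0.996), and ANO6, a membrane scramblase (0.994). IL32 was most like MCUB, a subunit of the mitochondrial calcium channel (0.993), and ZNF326 (0.990). None of these was a cytokine gene.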

How the data were processed

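The deposited values are raw gene counts, which the authors obtained by HISAT2 alignment to hg38, StringTie (-e) and prepDE.py3. Tool versions, annotation release, strandedness and the read length given to prepDE.py3 are not given in the sources used here, so a count may not equal 1 read. The submitters' processing notes also name edgeR. Libraries were grouped by their titles. The treatment labels of shmiR155HG replicates 2 and 3 give another number in the gene's name.

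Counts were tested in R 4.3.3 with edgeR 4.0.16 (TMM scaling, more than 1 CPM in at least 2 libraries, robust quasi-likelihood test, Benjamini-Hochberg adjustment over all 12263 genes tested, threshold 0.05, no block), after a test on simulated data. The log2 of normalized CPM had a pseudocount of 0.5 in ratios and rankings. Intervals are at 95%. Alternatives used DESeq2 1.42.0, limma 3.58.1, other scalings and filters, halved counts, the authors' exact test and each library left out. Positions are from GENCODE, whose release may differ from that of the authors.

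The members and gene lists were chosen with earlier results of these data known. Named genes were the members, MIR155HG, JAK3, IL12RB2, STAT4, up to 4 called genes of each list with the smallest adjusted p, the neighbours and the 2 most like genes of each expressed member. Further genes of the lists (OSM, FLT3LG, MIF, TNF, TYK2, STAT5A, IL10RA, IL10RB, IKZF1, RORA, ZBTB32, GATA3, IL1RN and receptor chains at 0) were chosen after their values were seen. A few genes of the lists are not reported here.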

Additional observations from a re-analysis of the deposited data

How the results depend on the processing

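The calls of IFNG and IL10 as lower, and IL32 as not called, held in all 16 alternatives, with log2 fold changes from −0.44 to −0.37 for IFNG (highest adjusted p = 4.96e-05), from −0.56 to −0.46 for IL10 (0.000191) and from −0.07 to −0.04 for IL32. The members called were 2 lower and 0 higher in each of them, with any library left out too. Under the authors' rule (exact test of edgeR, unadjusted p under 0.01, fold change over 1.2), 467 genes were lower and 552 higher in all, against 984 and 890, and the genes called over all the lists were 12 lower and 12 higher, against 19 and 22. Leaving out single libraries gave 15 to 18 lower and 16 to 21 higher in the lists. Among the fits that left out a library, the counts over all genes were lowest without shmiR155HG replicate 2, at 674 lower and 580 higher, a change by more than 1.5 times for the higher genes. The log2 fold change of STAT4 ranged from −0.074 to 0.022 with single libraries left out, and it turned positive both without shCtrl replicate 2 (0.0221) and without shmiR155HG replicate 3 (0.0180). The authors' rule also took the calls of LTA, LTB, RASSF5, MMP25-AS1, RC3H1 and DCP2, whose changes do not reach its fold of 1.2. These are not all the calls lost. TYK2, ZBTB32, RORA, STAT5A, MIF, IRF1 and ZNF263 also had changes under that fold in the main fit, as did further called genes of the lists. Other causes were not tested.

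Replicate numbers did not pair the libraries, since same-numbered libraries had correlated deviations of −0.0179, 0.000983 and 0.00348. With the replicate block, 909 genes were lower and 829 higher, 2 members were lower and 0 higher, and the log2 fold changes of IFNG and IL10 kept their calls. MIR155HG had no value at a mean of at least 5 CPM, because the filter removed it. The depth limits the 6 members with at most 20 counts, for which no absence of expression or of a difference is shown.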
